A study of Mus musculus with 6 samples.

Results

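The genes described here are 9 mouse genes whose level in the droplet data was many times higher in nuclei annotated as astrocytes than in all others together: Mertk, Prex2, Lama2, Plce1, Fam20a, Phkg1, Nwd1, Nhsl1 and St3gal4. They are 9 of the 19905 genes in the droplet table and were chosen by their level in the annotated astrocytes against all other nuclei, so the droplet values below describe that choice and test nothing. The study prepared nuclei for RNA sequencing from mouse brain that had been fixed in formalin and embedded in paraffin (FFPE), to compare ways of removing the paraffin and to set FFPE nuclei beside nuclei of frozen tissue. The mice were of the strain C57BL/6J and 8 to 12 weeks old, and FFPE nuclei came from 50 µm scrolls (thick rolled sections). No genotype or drug differed between groups. Nuclei were counted in 4 ways: bulk wells by SCRB-seq (a 3′-end method) with 10 or 100 nuclei each, bulk wells by SMART-Seq2 (which covers whole transcripts) with 10, 50 or 100 nuclei each, single nuclei sorted into plates and read by SMART-Seq2, and single nuclei in droplets (10x).

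Paraffin was removed with mineral oil and heat, with heated xylene, or with xylene at room temperature. SCRB-seq had 16 wells for each of these methods and 16 frozen wells, and SMART-Seq2 had 3 wells for each. All droplet nuclei came from FFPE tissue, and frozen wells and nuclei are named in the deposited annotation tables rather than in the labels. The wells of one table belong to 1 GEO sample and no animal is named per well, so every p-value here measures the spread between wells, which may be technical. In SCRB-seq, each method at each number of nuclei was 1 pool of 8 wells, so pool and method cannot be told apart. The labels call all material cortex, but markers of cerebellar granule neurons went against that label in the FFPE wells. Their summed level was 1545 CPM (counts scaled to a library total of 1000000) in FFPE and 37.5 CPM in frozen SCRB-seq wells, and 2122 against 103 CPM in SMART-Seq2. All 6 granule markers tested were higher in FFPE wells in both tables (edgeR, adjusted p under 0.05), and excitatory neuron markers summed to 419 against 1325 CPM and to 286 against 1402 CPM. Brain region and fixation therefore cannot be told apart in any FFPE against frozen comparison below.

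Astrocytes take up transmitter and potassium, store glycogen, lay down part of the basement membrane at the brain surface and around vessels, and clear synapses and debris. Several of the 9 genes belong to these tasks. Mertk encodes a receptor tyrosine kinase of the TAM family (Tyro3, Axl, Mertk), which binds Gas6 and Protein S on exposed phosphatidylserine and drives engulfment. Prex2 encodes an exchange factor that activates the GTPase Rac downstream of the lipid PIP3, and Plce1 encodes phospholipase C epsilon, which Ras-family GTPases activate. Lama2 encodes the laminin alpha 2 chain of basement membranes. Phkg1 encodes a catalytic gamma subunit of phosphorylase kinase, the enzyme that switches on glycogen breakdown. St3gal4 encodes a sialyltransferase of the Golgi, and Fam20a a pseudokinase of the secretory pathway that assists the kinase Fam20c. Nhsl1 belongs to the Nance-Horan syndrome family, whose proteins act on the actin cytoskeleton, and Nwd1 encodes a protein with NACHT and WD repeat domains.

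The 9 genes lie on 8 chromosomes in the mouse assembly GRCm38 (mm10), with spans from the GENCODE M21 annotation. Mertk lies at chr2:128698956-128802894, Prex2 at chr1:10993465-11303681, Lama2 at chr10:26980036-27619758 and Plce1 at chr19:38481109-38785030. Fam20a lies at chr11:109669749-109722279, Phkg1 at chr5:129863421-129898549, Nwd1 at chr8:72646711-72717876, Nhsl1 at chr10:18318985-18533892 and St3gal4 at chr9:35046576-35119268. Lama2 has the longest span, 640 kb, and Phkg1 the shortest, 35.1 kb. Counts in nuclei can come from introns, and 3 genes share exon bases with a gene on the opposite strand: Lama2 shares 631 bases with Gm48084, Phkg1 630 bases with Sumf2, and St3gal4 412 bases with 4930581F22Rik. The sources used here do not say whether counting used the strand, so reads of such pairs may be mixed.

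Promoter windows from RefSeq (250 bases before to 50 after the annotated start, GRCm38.p6) were matched for 8 of the 9 genes. Those of Lama2 and Plce1, which passed the low-count filter and were called higher in FFPE wells by SCRB-seq below, are shown with those of Mertk and Phkg1, which did not pass that filter. The windows are Lama2 chr10:27616893-27617192 (minus strand), Plce1 chr19:38523947-38524246 (plus), Mertk chr2:128698665-128698964 (plus) and Phkg1 chr5:129879039-129879338 (minus). Capitals mark matches, on either strand, to the NFI half-site TTGGCA or the GC box GGGCGG.
Lama2: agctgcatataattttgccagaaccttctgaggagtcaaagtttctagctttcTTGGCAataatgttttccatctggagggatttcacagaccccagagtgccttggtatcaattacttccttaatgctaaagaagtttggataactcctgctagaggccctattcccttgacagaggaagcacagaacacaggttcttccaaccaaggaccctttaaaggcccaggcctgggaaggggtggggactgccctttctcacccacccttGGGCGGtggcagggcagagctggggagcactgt
Plce1: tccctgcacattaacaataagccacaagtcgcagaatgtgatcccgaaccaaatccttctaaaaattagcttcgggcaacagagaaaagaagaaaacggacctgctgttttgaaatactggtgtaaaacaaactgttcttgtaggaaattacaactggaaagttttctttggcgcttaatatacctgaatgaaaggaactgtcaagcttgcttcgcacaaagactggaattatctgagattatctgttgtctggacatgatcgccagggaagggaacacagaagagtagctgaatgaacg
Mertk: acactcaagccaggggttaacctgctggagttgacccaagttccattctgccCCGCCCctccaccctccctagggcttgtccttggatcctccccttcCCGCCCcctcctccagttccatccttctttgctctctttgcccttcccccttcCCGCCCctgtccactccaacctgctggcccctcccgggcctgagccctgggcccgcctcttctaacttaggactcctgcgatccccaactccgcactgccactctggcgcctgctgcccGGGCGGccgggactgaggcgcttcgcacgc
Phkg1: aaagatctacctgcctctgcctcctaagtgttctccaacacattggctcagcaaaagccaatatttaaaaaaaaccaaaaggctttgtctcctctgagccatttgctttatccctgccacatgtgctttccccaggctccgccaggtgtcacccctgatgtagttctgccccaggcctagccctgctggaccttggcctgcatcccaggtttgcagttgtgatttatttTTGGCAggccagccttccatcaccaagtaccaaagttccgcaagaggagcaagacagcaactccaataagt

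The GC content of the Mertk window was 66%, that of Lama2 50.3%, that of Phkg1 50% and that of Plce1 41%, against a median of 52.7% over 32841 mouse promoter windows of the same length. Mertk held 4 GC boxes, Lama2 held 1 GC box and 1 NFI half-site, Phkg1 held 1 NFI half-site, and Plce1 held neither. Of all promoter windows, 35.7% held a GC box and 14.1% an NFI half-site, so each match is common and is a description only. The RefSeq windows of Lama2, Plce1 and Phkg1 lie inside the GENCODE spans, so they are the start of one transcript and may not be the one in use.

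In the droplet data, the astrocyte class held 624 of 7031 nuclei (8.87%) and 8.99% of all UMIs. It held 870 of the 1523 UMIs of the 9 genes, which is 57.1% (exact binomial 95% interval 54.6 to 59.6%). By gene the share ran from 49.4% for St3gal4 to 66.2% for Phkg1. Summed over the 9 genes, the level was 3716 CPM in astrocytes and 275 CPM in the other 11 classes together. The choice took genes from the top of a ranking by astrocyte over other level, with 10 CPM added to each, among 7814 genes with at least 50 UMIs. Mertk ranked first at 13.1-fold, the lowest member, St3gal4, was at 8.80-fold, and the next gene below it, Slc39a12, was at 8.37-fold. Gpc5, at 10.4-fold, ranked within the same stretch and is not a member.

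Mertk had 453 CPM in astrocytes (exact Poisson interval 371 to 548) and 239 (96.1 to 492) in microglia, the next class, where it is also a known engulfment receptor. In the 6 classes that the authors' annotation calls ExNeuron Mertk was together at 20.2. In ExNeuron4, against that name, inhibitory neuron markers summed to 1544 CPM and excitatory ones to 906. Prex2 had 735 (629 to 853) in astrocytes and 212 (110 to 370) in endothelial nuclei, with 55.8 in the ExNeuron classes. Plce1 had 265 (203 to 340) in astrocytes, 202 (55.0 to 517) in fibroblasts, 118 (53.8 to 223) in oligodendrocyte precursors and 106 (38.9 to 231) in endothelial nuclei.

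Lama2 and St3gal4 were not highest in astrocytes. Lama2 had 517 CPM (429 to 618) in astrocytes and 606 (313 to 1058) in fibroblasts, a class of 47 nuclei. St3gal4 had 709 (605 to 826) in astrocytes and 959 (577 to 1497) in fibroblasts, followed by 221 (141 to 328) in oligodendrocytes. Phkg1 had 192 (140 to 257) in astrocytes with at most 34.1 in any other class, and Nwd1 had 329 (260 to 411) with at most 52.3. Fam20a had 222 (166 to 291) and Nhsl1 295 (229 to 373) in astrocytes, and the highest other classes were fibroblasts at 50.5 for Fam20a and endothelial nuclei at 106 for Nhsl1. The fibroblast and microglia values rest on few UMIs, 1 of Fam20a and 7 of Mertk, for example.

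**Figure D1:**
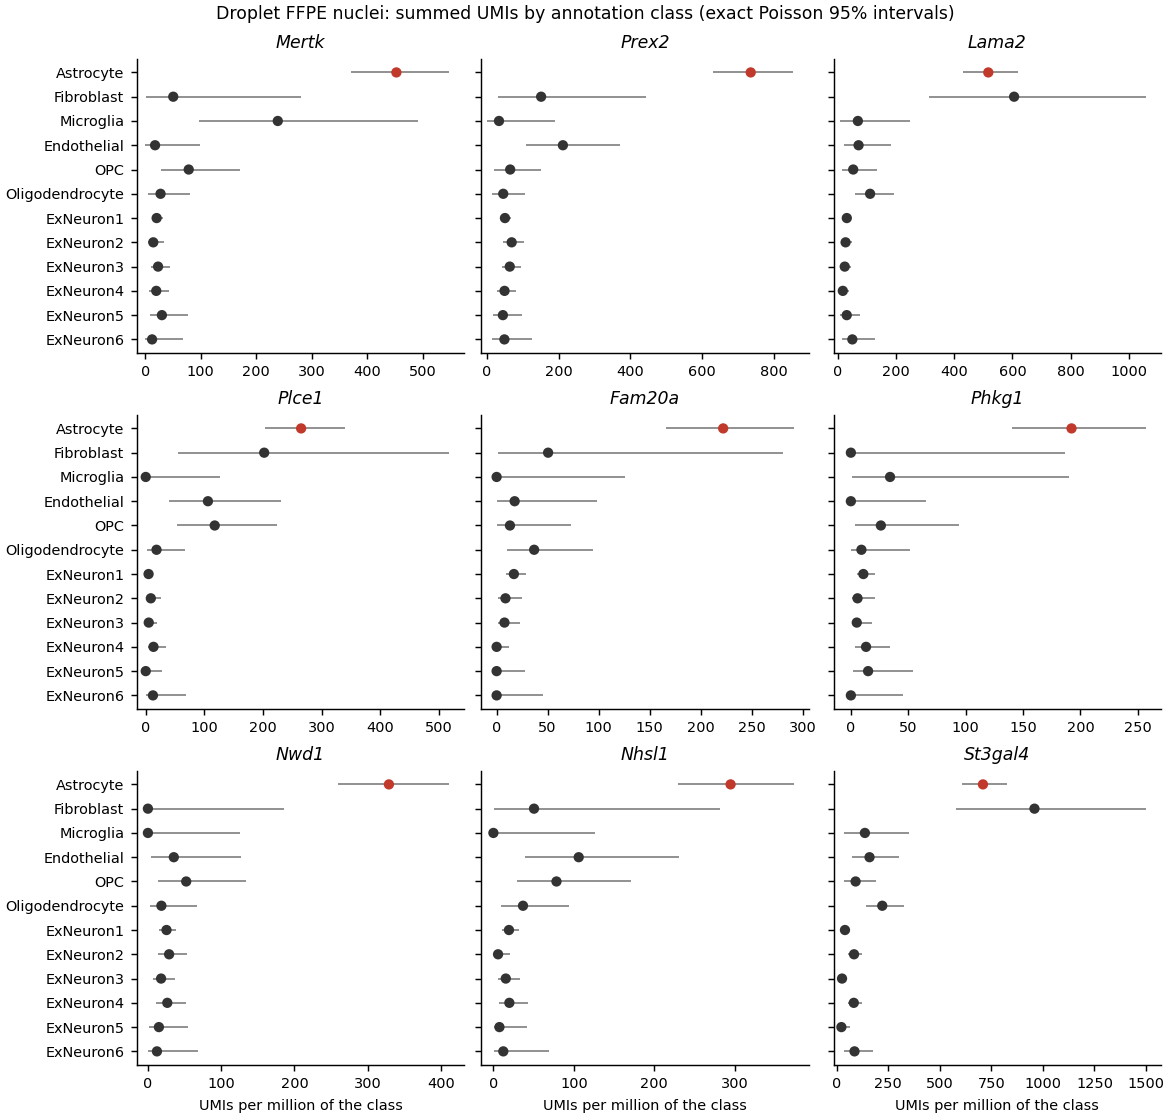
Summed UMIs of each of the 9 genes as CPM of the class (x axis) in the 12 annotation classes of the droplet FFPE nuclei (y axis), with exact Poisson 95% intervals that cover counting error only. Astrocytes (red) are highest for 7 genes, and fibroblasts lie above them for Lama2 (606 against 517) and St3gal4 (959 against 709).

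Within the astrocyte class the 9 genes were spread over many nuclei. At least 1 UMI of the 9 was seen in 57.2% of astrocytes and in 7.56% of the ExNeuron nuclei, at median depths of 339 and 325 UMIs per nucleus. Whether the ExNeuron share comes from free RNA was not tested. In the other 11 classes together the share was 9.05%. Thinned to 300 UMIs per nucleus in a single random draw, the share was 51.9% of 430 astrocytes (194 shallower ones left out) and 7.59% of 4021 other nuclei (2386 left out). At least 2 of the 9 genes were seen in 32.1% of astrocytes and 0.577% of the others. Fibroblasts were the only other class with a share near that of astrocytes, 48.9%, but there 8.51% had at least 2 of the genes.

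The 23 classical astrocyte markers (Slc1a2, Slc1a3, Aqp4, Gja1 and others) were less concentrated: astrocyte over other levels ran from 1.34 to 10.9 with a median of 3.12, against 9.89 to 19.8 with a median of 14.3 for the 9 genes. That gap follows from how the 9 were chosen. Over the 12 classes, the genes whose log2 levels were most like the mean of the 9 were Slc1a3 (Pearson r = 0.96), Trps1 (0.91), Plpp3 (0.90), Gramd3 (0.87) and Slc25a18 (0.85), among 7814 genes. Slc1a3 encodes a glutamate transporter of astrocytes. For Prex2 alone the closest were Plpp3 (0.91), Msi2 (0.87), Trps1 (0.87), Slc25a18 (0.87) and Gramd3 (0.86), and for Mertk alone Mthfs (0.86), Epb41l5 (0.86), Msmo1 (0.82), U2af1 (0.82) and Ugp2 (0.82). The classes share 1 library, so these values are a description.

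Partners of the 9 genes were less astrocyte-leading than the genes themselves, which also follows from how the 9 were chosen. Among 11 TAM, ligand and engulfment genes with at least 50 UMIs, 4 were more than 2-fold higher in astrocytes than in the other classes, against 4.98% of all genes. They were Dock1 (6.84-fold), a Rac activator of the engulfment machinery, Megf10 (5.31-fold), an engulfment receptor, Mfge8 (3.84-fold), a bridging ligand, and Abca1 (2.66-fold), a lipid exporter. Tyro3 was at 0.77-fold and the ligand Gas6 at 1.59-fold. Of 11 glycogen genes 4 passed 2-fold, including Phka1 (7.40-fold), a regulatory subunit of the same kinase as Phkg1, and Ugp2 (3.96-fold), while the paralog Phkg2 was at 0.93-fold. Only Itga6 (4.0-fold) of 6 laminin genes, Prex1 (2.34-fold) and Vav3 (3.05-fold) of 13 phosphoinositide and Rac genes, and St6gal1 (2.77-fold) of 11 sialyltransferases passed it, and none of 4 paralogs of Fam20a, Nwd1 and Nhsl1 did.

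In the SCRB-seq wells, which hold 7512 to 167144 mouse counts each, Lama2 and Plce1 were higher in FFPE nuclei than in frozen ones. Lama2 had, in CPM, a lowest, median and highest well of 195, 446 and 1060 after mineral oil, 212, 381 and 691 after heated xylene, 115, 237 and 434 after xylene at room temperature, and 10.6, 57.0 and 237 in frozen wells. Every FFPE well lay above the frozen mean of 77.7 ± 60.7 CPM (SD, n = 16), and 37 of 48 lay above the highest frozen well. Plce1 had 90.9, 269 and 1452 CPM after mineral oil, 56.4, 207 and 412 after heated xylene, 61.3, 156 and 343 after xylene at room temperature, and 0, 51.9 and 216 in frozen wells. The Plce1 groups overlap more, with 19 of 48 FFPE wells above the highest frozen well.

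With edgeR's quasi-likelihood test (Benjamini-Hochberg adjusted), Lama2 was 4.84-fold higher in FFPE than in frozen wells (log2 fold change 2.27, SE 0.28, adjusted p = 5.54e-11) and Plce1 3.56-fold higher (1.83, SE 0.34, adjusted p = 2.78e-06). By the same edgeR test St3gal4, at 0.87 (SE 0.44, adjusted p = 0.0826), was not called. These were the only 3 of the 9 genes that passed the filter on low counts, which a gene can pass through its higher group alone. The background was high, so 2 calls of 3 say little about the members as a group: 58% of the 1478 genes tested were called, 30.2% as higher and 27.7% as lower in FFPE, and the median over all genes was 0.00. Scaled with DESeq2 size factors, the median over all genes moved to -0.58 and the share of called genes that were higher from 52.2% to 31.4%, with Lama2 at 1.64 and Plce1 at 1.23, both still called beside 66.5% of genes. Within the wells of 100 nuclei alone (45.9% of genes called) Lama2 was at 2.27 (edgeR adjusted p = 2.77e-07) and Plce1 at 1.21 (0.00304). Within those of 10 nuclei alone (61% of genes called) they were at 2.18 (edgeR adjusted p = 1.22e-05) and 2.29 (2.17e-04).

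Requiring counts in at least 50% of the wells, a setting added after seeing the data, let all 9 genes into the fit with 6855 genes, of which 33.9% were called and 16.7% were called higher. Then 5 of the 9 were called higher, namely Lama2, Plce1, Fam20a, Nwd1 and Nhsl1, and 4 were not. As most wells are FFPE, a gene can pass this setting too through FFPE wells alone. Fam20a had counts in 41 of 48 FFPE and 7 of 16 frozen wells, and Nwd1 in 30 and 7. Fam20a was at a log2 fold change of 2.54 (SE 0.55, edgeR adjusted p = 1.21e-04), with a frozen median of 0 CPM and a highest frozen well of 85.8, against an FFPE median of 58.4. Nwd1 was at 1.75 (SE 0.56, adjusted p = 0.0100, edgeR) and Nhsl1 at 1.43 (SE 0.51, adjusted p = 0.0215, edgeR). Mertk was at 0.86 (SE 0.42, adjusted p = 0.109, edgeR), with wells of 0, 85.7 and 682 CPM in FFPE and 0, 49.3 and 343 in frozen as lowest, median and highest. Prex2 was at 0.21 (SE 0.42, adjusted p = 0.741, edgeR), with 0, 43.8 and 368 CPM against 0, 49.8 and 162. Phkg1 was at -0.20 (SE 0.35, adjusted p = 0.696, edgeR), with 0, 102 and 512 CPM against 0, 103 and 288. The DESeq2 Wald test, in which the median of all genes was -0.61 and 33.3% of genes were called, called Phkg1 lower (-0.85, adjusted p = 0.0391) and placed Prex2 at -0.44 and Mertk at 0.13, both uncalled. It did not call Nwd1 (1.21, adjusted p = 0.119, DESeq2) or Nhsl1 (0.77, 0.249).

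Summed over the 8 wells of a pool, all 6 FFPE pools lay above both frozen pools for Lama2 (186 to 616 against 59.6 and 91.7 CPM) and Plce1 (122 to 634 against 64.6 and 66.1 CPM). Of 6855 genes, 10.1% had that order. None of the other 7 genes did: Nwd1 had 0 counts in the mineral oil pool of 10 nuclei, where a count of up to 3 cannot be told from 0, and Prex2 had 1 count there. Beside these values, astrocyte markers summed to 5211 CPM in FFPE and 2659 in frozen wells, and 5 of the 9 tested were called higher, beside 30.2% of all genes, among them Slc1a3 (log2 fold change 2.57, edgeR adjusted p = 4.92e-06) and Glul (2.71, 8.66e-06), while 4 were not called. With counts required in 50% of the wells, 10 of 15 astrocyte markers were called higher, beside 16.7% of all genes, and so were 3 of 5 microglia markers. The part of region, of granule neurons or of astrocyte numbers in the differences of the 9 genes was not tested. In bulk wells, fewer cells of a type and less RNA per cell cannot be told apart.

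**Figure D2:**
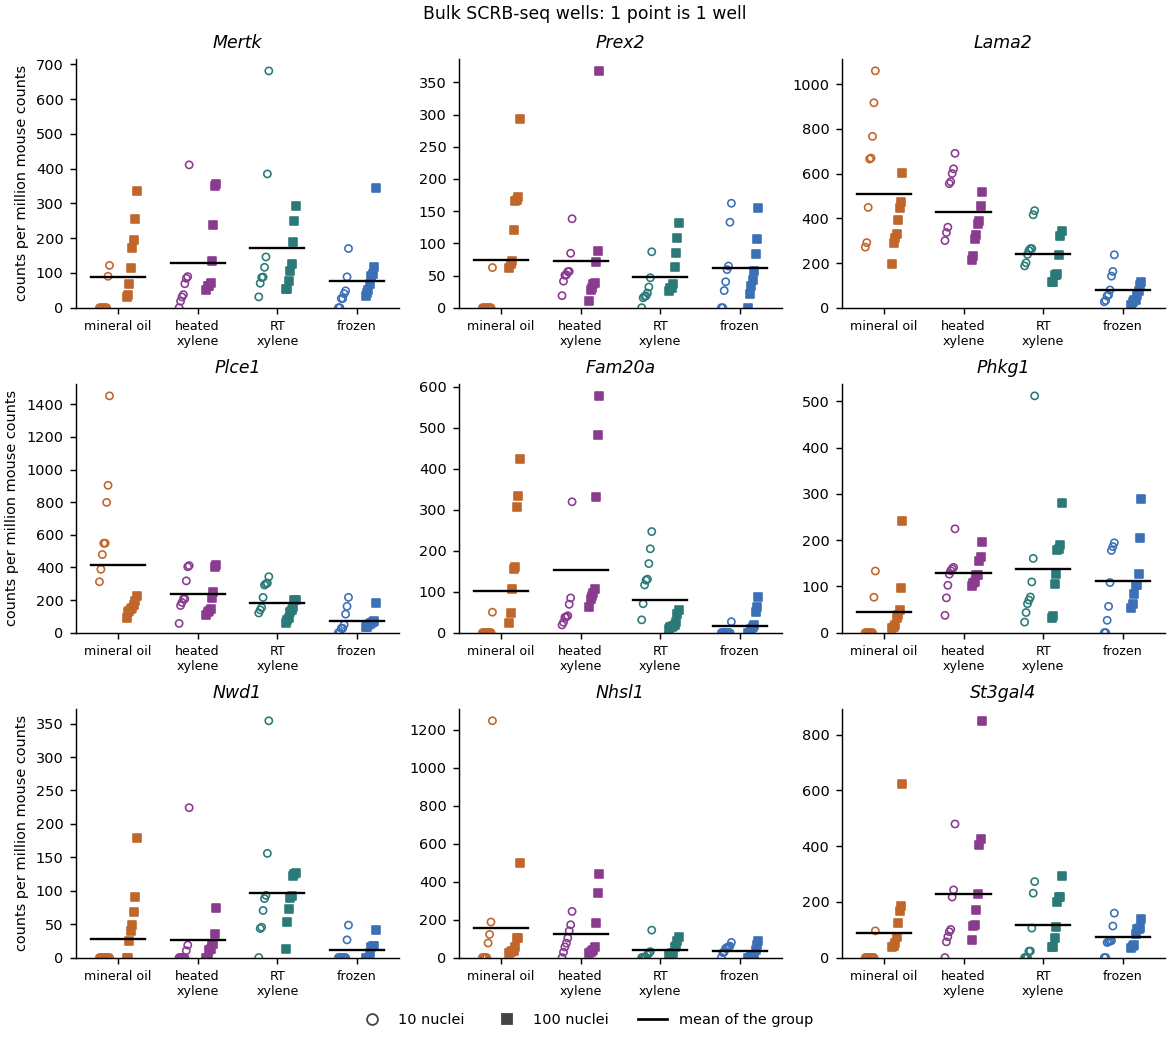
CPM of each of the 9 genes in the 64 SCRB-seq wells by paraffin removal (RT is room temperature) and in frozen wells, with open circles for 10 nuclei, filled squares for 100 nuclei and a line at the mean of each group. FFPE wells lie above most frozen wells for Lama2 and Plce1, and single wells far above their group recur for the other genes.

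Among companions of the 9 genes, 2 of 4 tested TAM and engulfment genes were higher in FFPE SCRB-seq wells, Abca1 (log2 fold change 1.74, edgeR adjusted p = 2.05e-06) and the adaptor Gulp1 (1.36, 2.37e-06). In the phosphoinositide and Rac list 2 of 6 were higher, the phospholipase Plch2 (1.34, edgeR adjusted p = 0.00235) and the Rac activator Tiam1 (1.09, 0.0312). Both tested sialyltransferases were not called, and no laminin, glycogen or paralog gene passed the filter. The median of the TAM list was 1.06 and that of the phosphoinositide and Rac list 0.65, against 0.00 over all genes tested. As 30.2% of all genes tested were called higher, 2 of 4 and 2 of 6 are near the background. With counts required in 50% of the wells, 4 of 9 TAM and engulfment genes were called higher and 0 lower (median 0.82), beside 16.7% of all genes called higher, 17.3% called lower and a median of 0.02. In that fit 3 of 7 laminin genes were lower and 0 higher (median -0.84), and 3 of 16 phosphoinositide and Rac genes were lower and 2 higher (median -0.21). The other lists had 1 glycogen gene higher and 1 lower of 8 (median 0.05), 1 sialyltransferase lower of 10 (median 0.15) and 1 paralog lower of 5 (median 0.69).

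Between methods of paraffin removal, Lama2 was the only one of the 3 tested members called in SCRB-seq. It had 508 ± 251 CPM after mineral oil and 240 ± 99.8 CPM after xylene at room temperature (SD, n = 16), and was higher after mineral oil (0.92 on the log2 scale with an SE of 0.26 and an adjusted p of 0.0164 by edgeR), where 10.3% of 1080 genes were called. Lama2 was also called there by DESeq2 (0.83, adjusted p = 0.00299, with 12.7% of genes called) and by edgeR with DESeq2 size factors (0.82, adjusted p = 0.0211, with 9.17%), with the number of nuclei as a term (0.95, adjusted p = 0.00303, with 18.6%) and in the wells of 100 nuclei alone (1.02, adjusted p = 0.0346). By edgeR that call was lost when counts in 50% of the wells were required (0.79, adjusted p = 0.0619), without a filter (0.66, 0.207) and in the wells of 10 nuclei alone (0.85, 0.109). The other method pairs, mineral oil against heated xylene and heated against room-temperature xylene, had 8.52% and 1.94% of genes called and none of the 3 members. Lama2 was called higher after heated than after room-temperature xylene by DESeq2 (0.74, adjusted p = 0.00665, 9.96% of genes called), a fit that also called Nwd1 lower (-1.92, adjusted p = 0.0334, DESeq2), and by edgeR with the number of nuclei as a term (0.81, adjusted p = 0.0255, 5.74%), against 0.79 and 0.0910 without that term. In the same pair edgeR without a filter, where 15.9% of genes were called, called Nwd1 lower (-1.80, adjusted p = 0.0325) and Nhsl1 higher (1.57, 0.0477). In the wells of 100 nuclei alone edgeR called Fam20a lower after room-temperature xylene than after heated xylene (3.29 for heated minus room temperature, adjusted p = 0.00123, with 5.99% of genes called) and than after mineral oil (3.07 for mineral oil minus room temperature, adjusted p = 0.00147, with 9.11%). With counts in 50% of the wells required, 8 of the 9 genes were tested, none was called between heated and room-temperature xylene (4.16% of genes called), and Phkg1 was lower after mineral oil than after heated xylene (-1.47, edgeR adjusted p = 0.0312, 10.5% of genes called) and lower than after room-temperature xylene (-1.56, 0.0237, 9.76%). DESeq2 also called Phkg1 lower in both pairs (1202 of 9734 and 1060 of 8322 genes called). So did edgeR without a filter (3415 and 2925 of 18205). In the wells of 100 nuclei alone edgeR did not call Phkg1 (adjusted p = 0.193 and 0.219). Its lowest FFPE pool, mineral oil with 10 nuclei, was at 17.4 CPM, where 1 count is 8.68 CPM and up to 3 cannot be told from 0. With counts in 50% of the wells Nhsl1 was higher after mineral oil than after room-temperature xylene (1.80, edgeR adjusted p = 0.0455). DESeq2 and edgeR without a filter called Nhsl1 there too. Its highest mineral oil well, at 1247 CPM, however stood far above the group's median of 46.6. In the wells of 10 nuclei alone edgeR called Plce1 higher after mineral oil than after heated xylene (1.21, adjusted p = 0.0467, with 20.8% of genes called) and than after room-temperature xylene (1.25, adjusted p = 0.0435, with 19.1%), so beside a high background.

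In the SMART-Seq2 wells, with 270363 to 942966 mouse counts each, all 9 genes had a positive FFPE over frozen fold change and none was called. Mertk had 0, 201 and 289 CPM in the wells of 10, 50 and 100 nuclei after mineral oil, 233, 47.2 and 248 after heated xylene, 321, 127 and 104 after xylene at room temperature, and 14.6, 3.70 and 25.7 in frozen wells. All FFPE wells except the mineral oil well of 10 nuclei lay above the 3 frozen wells. Prex2 had 21.5, 187 and 206 CPM after mineral oil, 406, 112 and 344 after heated xylene, 112, 245 and 93.8 after room-temperature xylene, and 43.8, 11.1 and 51.4 in frozen wells, with the same single exception. Lama2 had 0, 182 and 144 CPM after mineral oil, 461, 147 and 290 after heated xylene, 4.06, 314 and 271 after room-temperature xylene, and 18, 14.8 and 6.43 in frozen wells. For Lama2 the wells of 10 nuclei after mineral oil and room-temperature xylene lay below the frozen wells.

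Of the others, St3gal4 was above all frozen wells in 8 of 9 FFPE wells, Plce1, Phkg1 and Nwd1 in 7, and Fam20a and Nhsl1 in 6. Most exceptions were in the wells of 10 nuclei of 2 methods: the mineral oil one held 0 counts of Mertk, Lama2, Fam20a, Phkg1 and Nwd1, and the room-temperature one 0 counts of Fam20a, Nwd1 and Nhsl1. No member had all 9 FFPE wells above all 3 frozen wells, an order that 3.09% of 11236 genes had. Phkg1 had 0 to 298 CPM in FFPE and 22.4 to 51.8 CPM in frozen SMART-Seq2 wells.

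**Figure D3:**
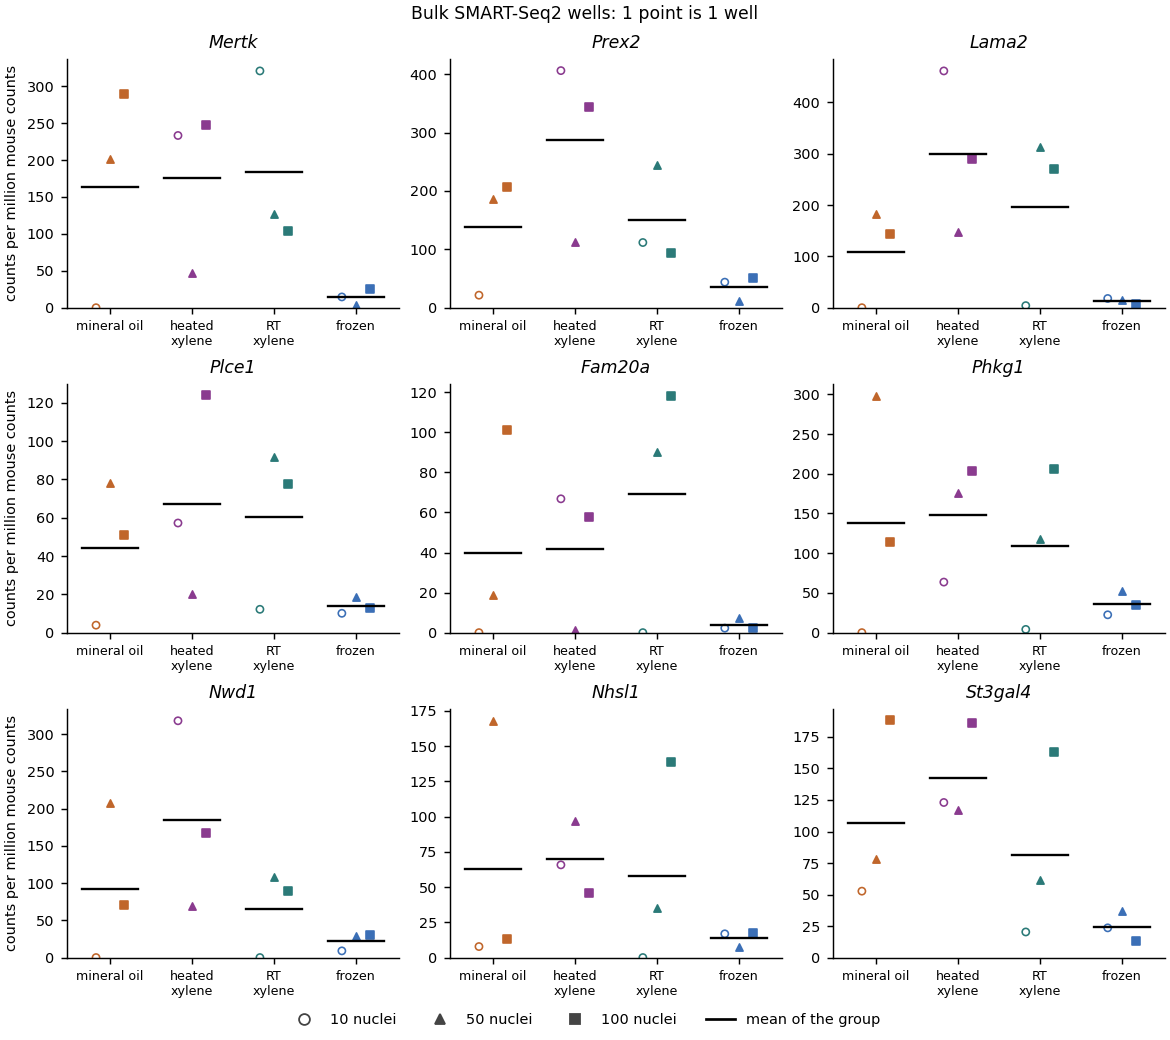
CPM of each of the 9 genes in the 12 SMART-Seq2 wells by paraffin removal (RT is room temperature) and in frozen wells, with symbols for 10, 50 and 100 nuclei and a line at the mean of each group. Frozen wells lie low for every gene, and the FFPE wells nearest to them are mostly those of 10 nuclei.

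By edgeR, Mertk was 9.27-fold higher in FFPE than in frozen SMART-Seq2 wells (log2 fold change 3.21, SE 1.14, adjusted p = 0.131), Lama2 11.5-fold (3.52, SE 1.20, adjusted p = 0.114) and Prex2 4.05-fold (2.02, SE 0.80, adjusted p = 0.198). The 9 log2 fold changes ran from 1.58 for Phkg1 to 3.52 for Lama2 with a median of 1.94, against -0.13 over all 9092 genes, of which 4.09% were called, 1.45% as higher and 2.64% as lower. With counts in 50% of the wells required, 3.11% of 11236 genes were called, 1.25% as higher and 1.87% as lower, and none of the 9. Mertk and Lama2 were called in a DESeq2 Wald test (adjusted p = 0.0342 and 0.0277, with 5.89% of genes called) and in edgeR without a filter on low counts (0.0276 and 0.00612, with 2.94%). Both were also called by edgeR when the 10-nuclei well of the mineral oil group was left out (adjusted p = 0.0122 and 0.0171, with 4.29% of genes called). Leaving out the 10-nuclei well of room-temperature xylene instead, edgeR called Lama2 alone of the 9 (adjusted p = 0.0250, with 4.58%). Leaving out all wells of 10 nuclei, a step added after seeing the data, called 8.13% of 9492 genes, 3.72% as higher, and among them Mertk, Lama2 and Phkg1 (log2 fold changes 3.03, 4.21 and 1.90). Over all fits run, the lowest to highest log2 fold change was 2.90 to 3.98 for Mertk, 1.72 to 2.52 for Prex2 and 3.22 to 4.21 for Lama2.

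Astrocyte markers in the SMART-Seq2 wells summed to 4900 CPM in FFPE and 946 in frozen wells, and 2 of the 18 tested, Slc4a4 and Cst3, were called higher, with a list median log2 fold change of 2.53. Other lists had higher medians in the same fit, 9.66 for granule neurons (6 of 6 higher), 3.06 for microglia (0 of 7 called) and 2.92 for oligodendrocytes (2 of 10 higher). Inhibitory neurons followed with 1.94 and endothelial cells with 1.53 (0 of 3 and 0 of 8 called), beside 1.94 for the 9 genes. Excitatory neuron and Purkinje markers had medians of -1.71 and -2.55 (2 of 5 and 1 of 2 lower). None of 13 TAM and engulfment, 7 laminin, 11 glycogen or 10 sialyltransferase genes tested was called in either direction. In the phosphoinositide and Rac list 1 of 15 was higher. It was the phospholipase Plcb4 (2.01 on the log2 scale, adjusted p = 0.00501 by edgeR), an enzyme of neuronal receptor signalling. Of 5 paralogs Nwd2 was lower (-3.50, edgeR adjusted p = 0.0138), the opposite sign to Nwd1. Between methods of paraffin removal, 0% of 8372 genes were called by edgeR in each of the 3 pairs, and so none of the 9. At an unadjusted p under 0.05 the pairs had 314, 199 and 379 genes, and DESeq2 called 7, 1 and 12.

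**Figure D4:**
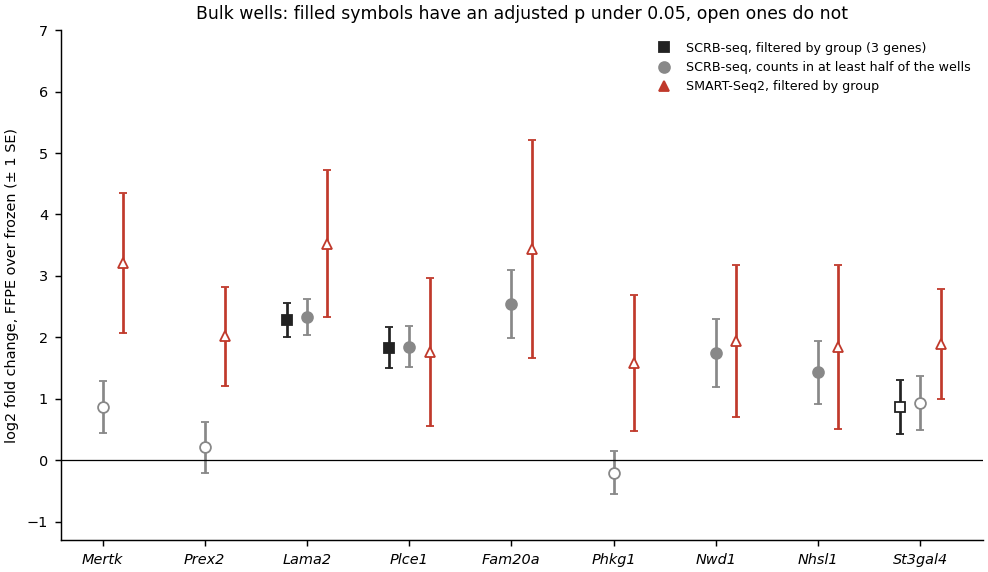
Log2 fold change of FFPE over frozen wells (y axis, with 1 SE either way) for the 9 genes in 3 edgeR fits: SCRB-seq filtered by group (black), SCRB-seq with counts in at least 50% of the wells (grey) and SMART-Seq2 (red). Filled symbols have an adjusted p under 0.05. Lama2 is positive in all 3 fits and called in both SCRB-seq fits, while the SMART-Seq2 bars are wide.

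The 9 genes were also set against the classical astrocyte markers, with no test. The summed level of the 9 genes over that of the markers was 0.0932 over all droplet nuclei, made up of 0.266 in the astrocytes, a value that the choice of the genes sets, and 0.050 in the other nuclei. It was 0.256 in FFPE and 0.201 in frozen SCRB-seq wells, and 0.235 in FFPE and 0.183 in frozen SMART-Seq2 wells, each from summed counts. From mean CPM over plate nuclei it was 0.0565 in FFPE, 0.0853 in frozen and 0.359 in first-batch nuclei, the plate sets described below. By method it ran from 0.248 to 0.263 in SCRB-seq and from 0.213 to 0.292 in SMART-Seq2. The marker sum covers 23 genes in droplets and 21 in wells and plates. The ratio also depends on transcript length and on where reads fall, so values of different kinds of library cannot be compared closely.

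The whole-series plate table holds 143 FFPE and 137 frozen nuclei, with medians of 47887 and 255329 counts and of 1635 and 4382 genes per nucleus. Of the FFPE nuclei 134 are the same as in the deposited second batch (0 of 21117 genes differ), and a separate first batch holds 98 FFPE nuclei.

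Many plate nuclei were near copies of another one, so they cannot be taken as separate nuclei. By Pearson's r over all genes of log2 values with 10 CPM added, 56 of the 143 FFPE, 90 of the 137 frozen and 16 of the 98 first-batch nuclei had a partner above r = 0.9, while the median r over all pairs of a set was 0.23, 0.31 and 0.19. Of the pairs, 29 of 37 in FFPE and 52 of 72 in frozen joined nuclei of different plates, the 8 first-batch pairs each lay on 1 plate, and 3 more pairs joined first-batch nuclei to the 143. Above r = 0.8 the nuclei with a partner were 89, 105 and 16. In one first-batch pair Prex2 had 1132 and 1043 counts and Lama2 387 and 332, and in another Fam20a had 310 and 231 and Nwd1 517 and 378. Whether such nuclei are the same nucleus read under more than 1 well was not tested. Counting each group of alike nuclei once, with the deepest kept, leaves 112 FFPE, 84 frozen and 90 first-batch nuclei, a step added after seeing the data. The results below use all nuclei unless this step is named beside them.

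At least 1 count of the 9 genes was found in 72.7% of FFPE nuclei, 85.4% of frozen nuclei and 82.7% of first-batch FFPE nuclei. With alike nuclei counted once the shares were 77.7%, 82.1% and 81.1%. Thinned to 10000 counts per nucleus, the share expected over all possible draws was 57.7% in FFPE, 69.6% in frozen and 61.3% in first-batch nuclei, and 62.3%, 65.9% and 58.7% with alike nuclei counted once. Each group counts as 1 sample, so no test was made. The FFPE plate nuclei also carried granule neuron markers, with a median of 622 CPM, against 0 CPM in frozen nuclei (591 and 0 CPM with alike nuclei counted once).

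By gene, Phkg1 had counts in 64 FFPE and 90 frozen nuclei, Plce1 in 51 and 86, Lama2 in 39 and 45, and Mertk in 38 and 48. Prex2 had counts in 34 FFPE and 66 frozen nuclei, Nhsl1 in 27 and 60, St3gal4 in 17 and 50, Fam20a in 12 and 50, and Nwd1 in 11 and 39. Counting alike nuclei once, the counts ran from 8 (Nwd1) to 53 (Phkg1) of 112 FFPE nuclei and from 18 (Nwd1) to 53 (Phkg1) of 84 frozen nuclei. The first batch and the 143 FFPE nuclei, 9 of which are not in the second batch, detected some of the genes at different shares. Others were close, namely Prex2 (24.5% and 23.8%), Fam20a (10.2% and 8.39%), Nwd1 (10.2% and 7.69%) and Nhsl1 (22.4% and 18.9%). Mertk was at 14.3% and 26.6%, and St3gal4 at 21.4% and 11.9%. Lama2 was found in 43.9% of the 98 first-batch nuclei (exact binomial interval 33.9 to 54.3%) and in 27.3% (20.2 to 35.3%) of the 143, Plce1 in 14.3% (8.04 to 22.8%) and 35.7% (27.8 to 44.1%), and Phkg1 in 28.6% (19.9 to 38.6%) and 44.8% (36.4 to 53.3%). With alike nuclei counted once Lama2 was in 42.2% of 90 and 30.4% of 112, Plce1 in 14.4% and 39.3%, and Phkg1 in 25.6% and 47.3%. Thinned to 10000 counts, over all nuclei, the expected share for Plce1 was 5.67% of first-batch nuclei and 21.5% of the 143.

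Levels in single nuclei rested on few nuclei. The FFPE nucleus with the most counts of a gene held from 25.2% (Phkg1) to 83.9% (Nwd1) of all its FFPE counts, and the frozen one from 5.40% (Phkg1) to 41.2% (Prex2). With alike nuclei counted once these were 28.7% to 85.6% in FFPE and 10.5% to 79.9% in frozen nuclei, for the same genes. Fam20a had a mean of 5.44 CPM over FFPE nuclei, 121 over frozen nuclei and 63.5 over first-batch nuclei, with single nuclei at up to 406, 6025 and 2655 CPM. Mertk had means of 109, 62.8 and 65.0 CPM, and Prex2 of 113, 114 and 354 CPM, the last with 1 nucleus at 21944 CPM. Counting alike nuclei once, the means were 6.86, 107 and 57.4 CPM for Fam20a, 138, 49.8 and 67.6 CPM for Mertk, and 143, 106 and 342 CPM for Prex2. At least 5 of the 9 genes were detected together in 11.2% of FFPE, 43.1% of frozen and 7.14% of first-batch nuclei, and those nuclei had medians of 3102, 7301 and 2030 genes. With alike nuclei counted once the shares were 13.4%, 36.9% and 5.56%.

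**Figure D5:**
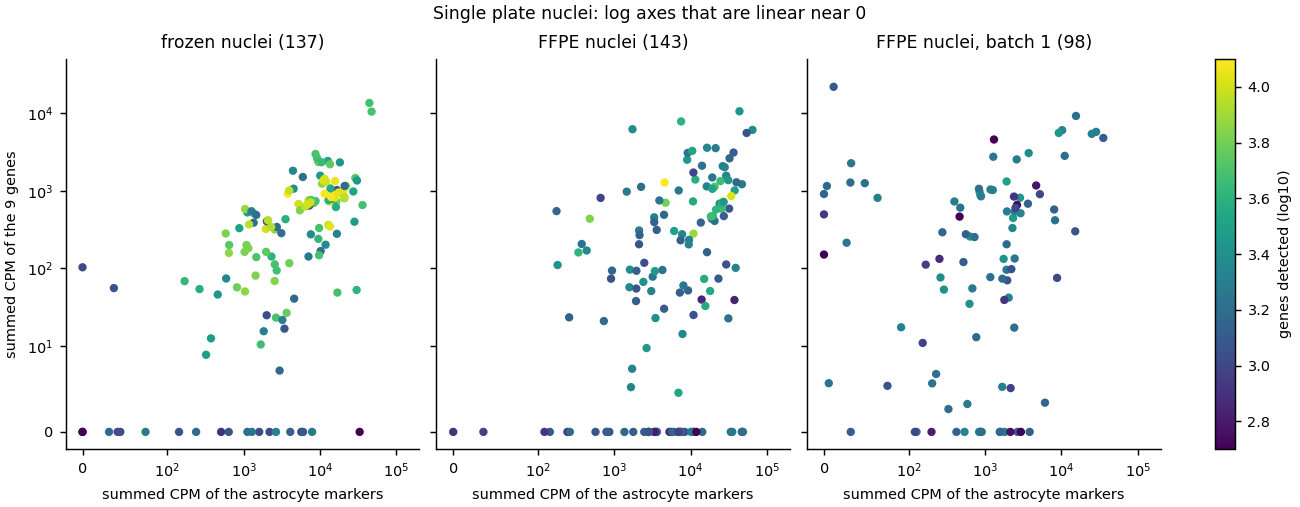
Summed CPM of the 9 genes (y axis) against summed CPM of the classical astrocyte markers (x axis) in single plate nuclei, with axes that are logarithmic except near 0 and colour for the log10 number of genes detected. Points rise together most clearly in the frozen nuclei (Spearman rho 0.66) and less in the FFPE nuclei (0.40) and the first batch (0.24). All nuclei are drawn, near copies included.

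Across single nuclei the 9 genes went with the astrocyte markers to different degrees. Spearman's rho between the 2 summed levels was 0.66 over the 137 frozen nuclei, 0.40 over the 143 FFPE nuclei and 0.24 over the 98 first-batch nuclei, which are descriptions since nuclei share plates and depth and many are near copies. It was 0.63, 0.47 and 0.21 with alike nuclei counted once. The rho of the 9 genes with the number of genes per nucleus was 0.52, 0.52 and 0.19, or 0.49, 0.51 and 0.14 with alike nuclei counted once. With nuclei of at most 5000 genes alone, the rho with astrocyte markers was 0.62 over 80 frozen nuclei and 0.39 over 136 FFPE nuclei, or 0.54 over 53 and 0.47 over 106 with alike nuclei counted once. The rho with microglia markers was as high as that with astrocyte markers in the 143 FFPE nuclei, 0.43, but 0.04 in the first batch and 0.32 in frozen nuclei (0.46, 0.10 and 0.30 with alike nuclei counted once, as for the values in parentheses that follow). With granule markers it was -0.22 in both FFPE sets (-0.28 and -0.26) and 0.32 (0.27) in frozen nuclei. In frozen nuclei it was also 0.50 with Bergmann glia, 0.48 with oligodendrocyte and 0.44 with endothelial markers (0.49, 0.52 and 0.41), so the 9 genes did not go with astrocyte markers alone. By gene, the rho with astrocyte markers in frozen nuclei ran from 0.22 for Lama2 to 0.54 for Phkg1 (0.17 to 0.49, for the same genes). In the 143 FFPE nuclei it ran from 0.06 for Nwd1 to 0.29 for Mertk (-0.01 for Nwd1 to 0.33 for Plce1). The first batch had another order, with 0.06 for Mertk, 0.28 for Nwd1 and the highest value, 0.33, for Fam20a (0.05, 0.22 and 0.26, with Lama2 highest at 0.28). The order of the genes thus differed between the FFPE sets.

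The nuclei richest in astrocyte markers were also looked at, as the 10% with the highest summed CPM, a limit set after seeing the data that marks a range and no cell type. The mean summed level of the 9 genes was 2409 CPM in the 14 richest frozen nuclei and 522 CPM in the rest, 1994 against 571 CPM in FFPE nuclei (15 richest) and 4046 against 724 CPM in the first batch (10 richest). In the first batch the median number of the 9 genes detected was 5 in the richest nuclei and 1 in the rest, at medians of 1602 and 1606 genes per nucleus. There Fam20a had counts in 6 of the 10 richest and 4 of the other 88 nuclei, and Lama2 in 8 of 10 and 35 of 88. Some of these nuclei are near copies. With alike nuclei counted once the mean summed levels were 3337 CPM in the 9 richest and 735 CPM in the other first-batch nuclei, 1799 against 482 CPM in frozen nuclei and 2675 against 622 CPM in FFPE nuclei. Fam20a then had counts in 4 of the 9 richest and 4 of the other 81 first-batch nuclei, Lama2 in 7 of 9 and 31 of 81, and the median number of genes of the 9 was 4.0 against 1. In the 143 FFPE nuclei the corresponding medians were both 2, and at least 1 of the 9 genes was found in 66.7% of the richest and 73.4% of the rest, but with alike nuclei counted once in 91.7% of 12 and 76% of 100, with medians of 3 and 2. The marker level of 12 frozen, 17 FFPE and 5 first-batch nuclei lay within 20% below to 25% above the limit.

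The share of Phkg1 in the summed level of the 9 genes differed between tables. It made up 46.9% of the summed mean CPM of the 9 genes in FFPE nuclei and 32.2% in frozen nuclei, both by SMART-Seq2, and 13.2% in the first batch, or 44.1%, 31.2% and 12.5% with alike nuclei counted once. In the bulk SMART-Seq2 wells its share was 11.1% in FFPE and 17.7% in frozen wells, and in SCRB-seq 8.63% and 22.3%. In droplet astrocytes it was 5.17%, the lowest of the 9. The span of Phkg1 overlaps Zbed5 on the opposite strand and Chchd2 (not analysed here) on its own strand, and the RefSeq promoter printed above lies inside that span. Zbed5, looked at after these values were seen, had a Spearman rho with Phkg1 of 0.63 over FFPE, 0.66 over frozen and 0.52 over first-batch nuclei, near copies included. Sumf2, which shares exon bases with Phkg1, had a rho of 0.13, 0.25 and 0.14. Whether reads of neighbouring genes enter the Phkg1 counts of the plates was not tested.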

How the data were processed

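The deposited tables hold raw counts per gene for 64 SCRB-seq wells, 12 SMART-Seq2 wells, plate nuclei and 7031 droplet nuclei, in which UMIs were counted, and the droplet classes are the authors' deposited annotation. Counts were made by the authors against hg19 and mm10, per the submitters' processing notes. The aligner, the counter and whether SCRB-seq UMIs were collapsed are not stated in those notes. Treatment and number of nuclei per well come from the deposited annotation table of each bulk experiment. In SCRB-seq, 10653 human genes were left out and 19006 mouse genes kept.

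Bulk counts were tested with edgeR's quasi-likelihood test (edgeR 4.0.16 in R 4.3.3, TMM scaling, genes filtered by expression within groups), with Benjamini-Hochberg adjustment over all genes tested and calls at an adjusted p under 0.05. The FFPE contrast is the mean of the 3 paraffin removal groups minus frozen. Alternatives were DESeq2 1.42.0, its size factors in edgeR, no filter, the number of nuclei as a term or block, wells of one number alone and leaving out each SMART-Seq2 well. Those added after seeing the data were counts in at least 50% of the wells and leaving out the SMART-Seq2 wells of 10 nuclei and, for plates, counting alike nuclei once and the expected value of thinning. The edgeR fit was also run on simulated data, but the share of changed genes it recovered is not given here. CPM was computed from the counts, and for the bulk lists from summed counts. Python 3.11.15 with numpy 2.4.6, pandas 2.3.3, scipy 1.17.1 and matplotlib 3.10.9 gave the summaries. Intervals are 95%, exact and cover counting error only. No doublet caller was run.

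The members and lists were chosen with earlier results of these data known. Named genes are the 9 members, up to 3 called genes per companion list with the largest change, list members with high droplet counts, astrocyte markers, and the 5 genes most like a member by Pearson's r over classes of log2 values with 10 CPM added. Tyro3, Gas6, Phkg2, Zbed5, Sumf2 and the companions named for their astrocyte over other ratio were chosen after their values were seen. Promoters were searched for 7 motifs. Besides the NFI half-site and GC box these were the full palindromic NFI site (0.0365% of windows), the SOX core ACAATG (12.6%), the AP-1 site TGANTCA (7.81%), the E-box CACGTG (7.15%) and the TATA box TATAAA (13.6%). None of these 5 was in a window of the 8 genes matched.

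Of the other marker lists in FFPE against frozen wells, by edgeR with genes filtered within groups (30.2% of all genes higher and 27.7% lower in SCRB-seq, 1.45% and 2.64% in SMART-Seq2), oligodendrocyte genes were higher in 2 of 3 tested in SCRB-seq and 2 of 10 in SMART-Seq2. Oligodendrocyte precursor genes were lower in 1 of 1 and 0 of 5, Bergmann glia genes higher in 1 of 1 and 0 of 1, inhibitory neuron genes higher in 1 of 1 and 0 of 3, and Purkinje genes lower in 1 of 1 and 1 of 2. None of 7 microglia, 8 endothelial and 1 mural gene tested in SMART-Seq2 was called, and no such gene was tested in SCRB-seq, nor a leptomeningeal or ependymal gene in either. With counts in 50% of the wells (16.7% of all genes higher and 17.3% lower in SCRB-seq, 1.25% and 1.87% in SMART-Seq2), SCRB-seq called higher 3 of 5 microglia, 4 of 9 oligodendrocyte, 1 of 3 oligodendrocyte precursor (none lower), 1 of 2 Bergmann glia, 1 of 2 inhibitory neuron and 0 of 3 endothelial genes, and lower 2 of 2 Purkinje and 3 of 4 excitatory neuron genes. SMART-Seq2 then called higher 2 of 21 astrocyte, 1 of 8 endothelial and 0 of 1 leptomeningeal genes. In the droplet fibroblast class leptomeningeal markers summed to 1867 CPM.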

Additional observations from a re-analysis of the deposited data

Results flagged for a closer look

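In SCRB-seq, each gene was looked at in each pool of 8 wells where its values differed. In 20 of the 71 combinations of gene and pool, 1 well had a gap to the next well over 0.526 of the pool's range. The same wells recur across genes, so these are not separate pools. In 4 of the 20 that well held a single count beside 0 counts in the others, which cannot be told from 0: Prex2 at 62.4 CPM, Fam20a at 49.9 and 26.6 CPM and St3gal4 at 95.8 CPM. The other 16 wells held 5 to 67 counts. The limit is made for normally distributed values, and how often chance passes it in low counts with many wells at 0 was not measured. The cause of the stray wells was not tested. For Mertk the stray wells were at 411 CPM (heated xylene, 10 nuclei) and 343 CPM (frozen, 100 nuclei), and for Prex2 at 368 CPM (heated xylene, 100 nuclei) and 62.4 CPM (mineral oil, 10 nuclei). Plce1 had a frozen well of 100 nuclei at 184 CPM. Fam20a had wells of 10 nuclei at 319 CPM (heated xylene), 49.9 CPM (mineral oil) and 26.6 CPM (frozen). Phkg1 had wells at 512 CPM (room-temperature xylene, 10 nuclei) and 241 CPM (mineral oil, 100 nuclei).

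Nwd1 had wells at 354 CPM (room-temperature xylene, 10 nuclei), 74.9 and 224 CPM (heated xylene, 100 and 10 nuclei) and 40.8 CPM (frozen, 100 nuclei). Nhsl1 had wells at 144 CPM (room-temperature xylene, 10 nuclei), 497 CPM (mineral oil, 100 nuclei) and 1247 CPM (mineral oil, 10 nuclei). St3gal4 had wells at 850 CPM (heated xylene, 100 nuclei), 623 CPM (mineral oil, 100 nuclei) and 95.8 CPM (mineral oil, 10 nuclei). Lama2 had no such well.

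The SCRB-seq table also lists human symbols, which no comparison used and which hold 9.47% of its counts. Over the 64 wells it gave 4 counts to MERTK, 6 to PREX2, 15 to LAMA2, 7 to PLCE1, 16 to NWD1 and 18 to NHSL1, beside 532, 283, 1093, 681, 195 and 310 mouse counts of the same genes.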

How the results depend on the processing

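The SCRB-seq FFPE against frozen comparison called 857 genes, and 3871 by DESeq2, 4785 without a filter, 2325 with counts in at least 50% of the wells and 478 in wells of 10 nuclei alone. Lama2 and Plce1 were called in all 7 alternatives run, Fam20a in all 4 that tested it. In the order DESeq2, no filter, number of nuclei as a term, counts in 50% of the wells and wells of 100 nuclei alone, mineral oil against heated xylene (92 genes) gave 1202, 3415, 143, 413 and 256. Heated against room-temperature xylene (21) gave 1040, 2899, 62, 163 and 117, and mineral oil against room-temperature xylene (111) gave 1060, 2925, 201, 382 and 178. More genes were tested by DESeq2 and without a filter. Uncalled differences changed sign for Lama2 in mineral oil against heated xylene without a filter (-0.15), for Plce1 there in wells of 100 nuclei (-0.51) and for St3gal4 in mineral oil against room-temperature xylene in wells of 100 nuclei (0.13), and the cause was not tested.

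In SMART-Seq2 the FFPE against frozen comparison called 372 genes, 602 by DESeq2, 772 without wells of 10 nuclei, 429 with the number of nuclei as a block, in which 0 of the 9 genes were called, and from 162 to 469 leaving out each well in turn. Leaving out the frozen well of 10, 50 or 100 nuclei gave 162, 187 or 174, with fewer samples. Between methods, mineral oil against heated xylene (0 genes) gave 7 by DESeq2, 19 without a filter, 6 with counts in 50% of the wells, 5 without wells of 10 nuclei and 0 to 6 leaving out each well. Heated against room-temperature xylene (0) gave 1 by DESeq2, 5 without a filter and 0 to 0, and mineral oil against room-temperature xylene (0) gave 12, 16, 6, 25 and 0 to 3, with 2 when the well of 100 nuclei of either group was left out. For the 9 genes in these pairs, 52 of 324 alternative values changed sign and 0 were called (lowest adjusted p 0.771).

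Requiring 5 counts or thinning to 10000 counts in a single draw moved the share of plate nuclei with any of the 9 genes from 72.7% to 49.0% and 51.9% in FFPE and from 85.4% to 66.4% and 72.4% in frozen. The expectation over thinning draws was 57.7% and 69.6%, with an SD between draws of 2.07 and 2.09 percentage points, so the FFPE draw was a low one. Counting alike nuclei once gave 77.7% and 82.1%. Counted as nuclei with a UMI, 38.1% of the droplet nuclei with any of the 9 genes were astrocytes, against 57.1% of UMIs. Depth limits detection, with medians of 339 UMIs in droplet astrocytes and 47887 counts in FFPE plate nuclei.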
